A study of Mus musculus with 4 samples.

Results

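Neutrophil-primed progenitors are cells of the stem and progenitor compartment that have begun to transcribe the proteins of the azurophil, or primary, granules of neutrophils. Neutrophil elastase (Elane), proteinase 3 (Prtn3), myeloperoxidase (Mpo) and cathepsin G (Ctsg) are made at this early step, well before the proteins of the secondary granules, such as lactoferrin, which appear in later precursors. The factors PU.1, C/EBPα, C/EBPε and GFI1 are known to drive the neutrophil fate, and IRF8 the monocyte and dendritic fate, from shared precursors. The Elane-high cells described here were chosen by their own RNA. A cell was counted where Elane took at least 5 of every 10000 of its unique molecular identifiers (UMIs, the counted RNA molecules) and where the basophil protease genes Prss34 and Mcpt8 together took less than 10 of every 10000. Of 25242 deposited cell barcodes, 13892 were kept, with at least 1000 UMIs, at most 10% of them mitochondrial, and no larger copy in another library, and 1736 of these met the rule. The levels of Elane, Prss34 and Mcpt8, the contrast of these cells with the remaining 12156 and their share of the kept cells therefore describe the choice, and no test is read from them.

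The cells were Lin-Sca1+cKit+ (LSK) cells, the sorted fraction of mouse bone marrow that holds stem cells and multipotent progenitors, and were profiled with the 10x Genomics 3′ single-cell assay in 4 libraries. Control mice were Nup358 fl/fl without a Cre transgene, called wild-type in the labels. Knockout mice were Nup358 fl/fl with R26-CreERT2, a Cre recombinase active after tamoxifen that is expressed in all cell types, and lost exon 2 of Nup358 (gene symbol Ranbp2), a protein of the cytoplasmic side of the nuclear pore. Mice of 9 to 12 weeks received tamoxifen on 3 consecutive days, and every library pooled the marrow of 3 mice, so that 6 mice and 2 libraries stood for each genotype. Since CreERT2 was present in the knockout mice alone, its own action and that of the deletion cannot be told apart.

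The 4 libraries shared cell barcodes. Counted over the libraries, 6680 different barcodes occurred in more than 1, and 10936 of the 25242 library entries were left out because a copy of the barcode with 3-fold or more UMIs stood elsewhere. These made up 14.8%, 81.8%, 65.3% and 18.8% of the barcodes of control library 1, control library 2, knockout library 1 and knockout library 2, the order in which 4 values are given throughout. After this step 6 kept barcodes and no Elane-high cell were shared. Among the barcodes left out, 485 would have met the Elane rule, 134 of them in knockout library 1 and 83 in knockout library 2, and of these 117 and 75 carried a barcode whose larger copy was in control library 2. Even after the filter, 62.2%, 93.6%, 85.2% and 94.7% of the Elane-high cells had a barcode that was also deposited for another library. Over all kept cells these shares were 22.7%, 90.7%, 78.4% and 78.1%.

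The DNA before the start sites of 4 genes that mark these cells is shown because the data turn on their transcripts. Each line gives the 250 bases before the start of the gene on mouse build GRCm38.p6, from RefSeq, written 5′ to 3′ on the gene's own strand. Elane and Prtn3 are neighbours on chromosome 10, at chr10:79886062-79886311 and chr10:79879417-79879666 (plus strand), Ms4a3 is at chr19:11640852-11641101 (minus strand) and Ly6c2, the more upstream of its listed starts, at chr15:75111972-75112221 (minus strand). Capitals mark GGAAGT, the letters that ETS factors such as PU.1 are known to bind, which were picked after the sequences had been seen and were searched on both strands.
Elane: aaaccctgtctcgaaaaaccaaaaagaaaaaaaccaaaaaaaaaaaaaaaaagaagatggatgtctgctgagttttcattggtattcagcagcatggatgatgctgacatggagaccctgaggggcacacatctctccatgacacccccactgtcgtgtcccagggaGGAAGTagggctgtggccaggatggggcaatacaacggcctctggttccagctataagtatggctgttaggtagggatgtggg
Prtn3: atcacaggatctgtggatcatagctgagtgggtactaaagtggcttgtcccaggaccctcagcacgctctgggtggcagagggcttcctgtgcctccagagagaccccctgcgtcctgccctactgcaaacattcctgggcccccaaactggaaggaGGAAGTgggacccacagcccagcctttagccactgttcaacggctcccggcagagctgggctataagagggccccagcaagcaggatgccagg
Ms4a3: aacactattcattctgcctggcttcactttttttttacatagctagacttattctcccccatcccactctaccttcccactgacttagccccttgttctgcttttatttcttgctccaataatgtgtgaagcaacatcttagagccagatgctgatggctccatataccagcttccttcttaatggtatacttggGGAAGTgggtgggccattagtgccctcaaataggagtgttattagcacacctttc
Ly6c2: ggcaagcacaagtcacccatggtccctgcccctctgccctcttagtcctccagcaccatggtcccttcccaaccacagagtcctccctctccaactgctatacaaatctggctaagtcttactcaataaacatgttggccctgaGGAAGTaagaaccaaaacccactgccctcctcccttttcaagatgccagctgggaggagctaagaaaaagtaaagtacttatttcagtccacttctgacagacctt
GGAAGT stood 83, 93, 55 and 106 bases before these starts, in the order shown. Of 32851 promoters of the same length, 19.7% held the letters on either strand, so that a match is common. The longer form GAGGAAGT, which contains it, was in Elane, Prtn3 and Ly6c2 but not in Ms4a3 and in 2.44% of all promoters. The C/EBP letters TTNNGCAA were in none of the 4 windows and in 9.56% of all promoters. These are matches of letters, not binding sites.

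Elane-high cells made up a far smaller part of the knockout libraries. They were 1565 of 7797 kept cells in control library 1 (20.1%, exact Clopper-Pearson 95% interval 19.2 to 21.0) and 125 of 1193 in control library 2 (10.5%, 8.80 to 12.4). In knockout library 1 they were 27 of 1571 (1.72%, 1.14 to 2.49), and in knockout library 2 they were 19 of 3331 (0.570%, 0.344 to 0.889). Both control shares lay above both knockout shares, and the control libraries also differed from each other beyond their intervals, which cover counting error only. The mean share was 15.3% ± 6.78 in controls and 1.14% ± 0.812 in knockouts (SD, n = 2 libraries each), a 13.3-fold ratio and a difference of -14.1 percentage points. The size of this ratio hung on the settings: it was 3.21-fold with the shared barcodes kept (a difference of -10.1 points), 12.9-fold without every barcode that also occurs in another library (-7.85 points), 77.9-fold with an Elane minimum of 20 per 10000, 26.8-fold without knockout library 1 and 8.89-fold without knockout library 2.

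Depth differed between the libraries, with medians of 6272, 13238, 17821 and 14622 UMIs per kept cell, so that the shares were lower in the deeper libraries, apart from the order of the knockout libraries. The members were deeper than the other kept cells of their library, with medians of 11745, 30052, 26725 and 21198 UMIs. With every kept cell thinned to 1000 UMIs, at least 1 Elane UMI remained in 20.1% and 9.81% of control cells and in 2.04% and 1.38% of knockout cells. Among 379 cells with B cell genes, which should lack elastase, none reached the Elane minimum of the rule. Elane UMIs below that minimum were not counted in these cells. They numbered 12, 8, 111 and 248 in the 4 libraries. A share of up to 26.5%, 36.9%, 3.27% and 1.48% reaching the minimum through background (exact upper bounds) was therefore not detectable. The cells with B cell genes were also shallower than the members, with medians of 2532.5, 6407, 2368 and 6141.5 UMIs.

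The knockout cells that met the rule also sat near its lower edge. The median Elane level of the members was 31.7 and 30.5 UMIs per 10000 for control members and 8.11 and 9.87 for knockout members, with ranges of 5.01 to 354, 5.06 to 203, 5.05 to 40.9 and 5.03 to 86.4. Of the members, 37.4% and 36.0% in controls and 92.6% and 78.9% in knockouts had 5 to below 20 Elane UMIs per 10000. At 80 or more there were 345 and 25 control cells, no cell of knockout library 1 and 1 cell of knockout library 2. Just inside the threshold, at 5 to below 7, lay 149, 16, 9 and 6 cells, and just outside, at 3 to below 5, lay 285, 11, 18 and 16. The members held medians of 38, 86, 20 and 24 Elane UMIs, and 6 members, all of control library 1, rested on 1 Elane UMI.

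**Figure D1:**
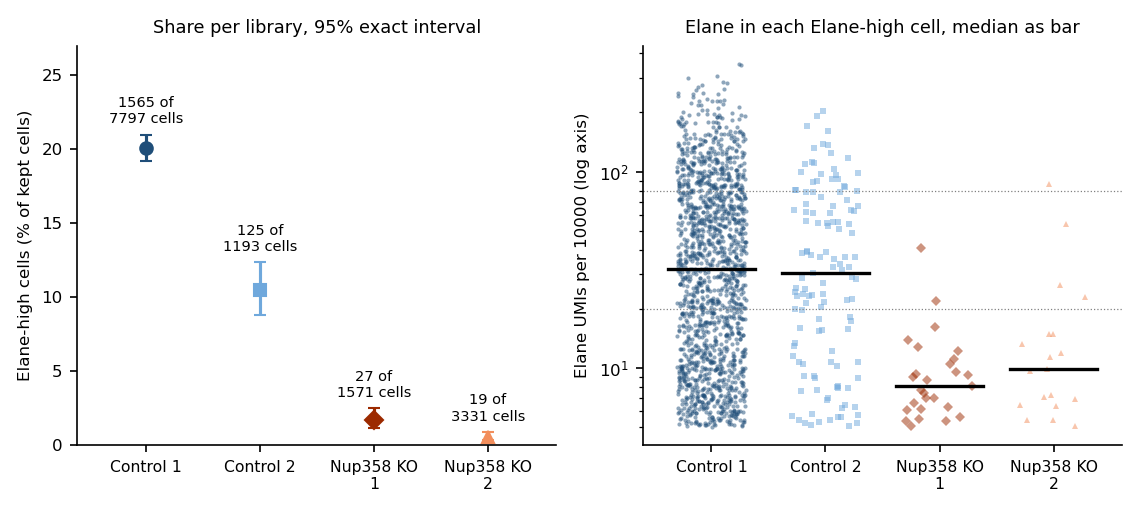
Left, Elane-high cells as a percentage of the kept cells of each library, with exact 95% intervals. Right, Elane UMIs per 10000 in every Elane-high cell on a log axis, with the median as a bar; knockout medians (8.11 and 9.87) lie below control medians (31.7 and 30.5).

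The label neutrophil-primed progenitor was held against its 5 markers by summing the UMIs of the Elane-high cells and of the other kept cells of each library and scaling each sum to 1000000 (counts per 1000000 UMIs, CPM). Prtn3 stood at 7506 and 7798 CPM in control and 4072 and 4434 CPM in knockout Elane-high cells, against 1425, 723, 581 and 326 CPM in the other cells of the same libraries. Ms4a3, a membrane protein of granulocyte and monocyte progenitors, stood at 1056, 1037, 670 and 1083 CPM against 92.8, 37.1, 72.0 and 39.3 CPM. Hp, the haemoglobin scavenger haptoglobin, stood at 318, 352, 97.2 and 211 CPM against 38.3, 26.7, 5.38 and 3.19 CPM. These 3 genes were thus higher in the Elane-high cells of all 4 libraries. Ly6c2, a surface protein of monocytes and their precursors, was not: control members held 598 and 793 CPM against 23.3 and 17.1 CPM in the other cells, but knockout members held 54.6 and 16.6 CPM against 46.4 and 30.7 CPM, so that knockout library 2 had less Ly6c2 in its Elane-high cells than in the rest. For knockout library 2 the label therefore holds by 3 of the 4 markers that the rule did not use.

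Several of the genes highest against the other cells in every library encode primary granule proteins (Mpo, Prtn3, Ctsg), and Cebpe encodes one of their regulators. Among 3196 genes of at least 50 CPM in either sum, 937 were higher and 962 lower in the Elane-high cells of all 4 libraries, 13 at least 4-fold higher in all 4 and 6 at least 4-fold lower. Mpo stood at 6565, 5606, 3490 and 3790 CPM in the Elane-high cells against 1238, 504, 482 and 348 CPM, and Ctsg at 2710, 3606, 1959 and 2084 CPM against 450, 264, 322 and 238 CPM. Cebpe, which encodes C/EBPε, stood at 78.7, 75.7, 45.3 and 131 CPM against 4.23, 3.66, 1.47 and 1.11 CPM, although 1 cell held 67.3% of the Cebpe UMIs of knockout library 2. Elane, Cebpe, Dmkn, Ms4a3, Hp, Igsf6, Rgcc, Ctsg, Anxa3, Hdc, Mpo, Prtn3, F13a1, Alas1, Atp8b4, Cst7, Clec12a, Plod3, Msrb1 and Plac8 led the order by their lowest ratio over the 4 libraries. Of the 11 primary granule genes 9 were higher in all 4 libraries, Elane by the rule itself, the exceptions being Ctsc, a protease activator (log2 ratios from -0.17 to 0.71), and Lyz2, lysozyme (-0.30 to 0.26). Of the 14 further genes of neutrophil priming 12 were higher in all 4. Of 18 genes of protein folding in the endoplasmic reticulum, where granule proteins are made, 15 were higher in all 4, among them Calr (2377, 1554, 2169 and 2300 CPM against 923, 473, 990 and 916 CPM) and Hspa5.

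The genes lowest in the Elane-high cells were erythroid (Car1, Car2, Hbb-bt, Hbb-bs), lymphoid or antigen presenting (Cd74, Jchain, Gimap1) and stem cell genes (Mecom, Myct1), together with Nr4a2. Of 14 stem cell genes 13 were lower in all 4 libraries, such as Hlf with 29.8, 14.6, 41.3 and 16.6 CPM against 139, 172, 145 and 131 CPM. Their summed level was 1345, 1282, 931 and 1540 CPM in the members against 2164, 2591, 1450 and 1414 CPM. The sum was thus higher in the members of knockout library 2, with Ifitm1 the most abundant of the list. The receptor Kit and Ly6a, which encodes Sca1, were used for the sort, and UMIs of each were found in part of the members. Of 1565, 125, 27 and 19 members, 814, 100, 15 and 9 had a Kit UMI and 680, 80, 19 and 11 a Ly6a UMI. Of 13 surface genes of the sort and its subsets, 8 were lower and 3 higher in the Elane-high cells of all 4 libraries. Of 8 T and NK cell genes 3 (Cd3e, Cd3g, Cd8a) were at 0 in the members of all 4 libraries and all 8 in the knockout members. The summed level of 14 erythroid genes was 174, 117, 108 and 150 CPM in the members against 716, 2669, 535 and 653 CPM in the other cells, with Tfrc the most abundant. That of 17 lymphoid genes was 120, 103, 152 and 87.9 CPM against 308, 565, 376 and 739 CPM, with Cd79b the most abundant and Ms4a1, Pax5 and Rag1 at 0. The erythroid and lymphoid sums were lower in the members than in the other cells of every library. The summed level of 10 megakaryocyte genes was 144, 130, 122 and 150 CPM, with Rap1b the most abundant, and that of 8 macrophage genes 9.23, 6.01, 7.99 and 7.13 CPM. Cells with over 3 times the median UMIs of their library, which may be doublets, were 196, 27, 3 and 0 of the members, and members with genes of another lineage were 4, 0, 0 and 0.

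**Figure D2:**
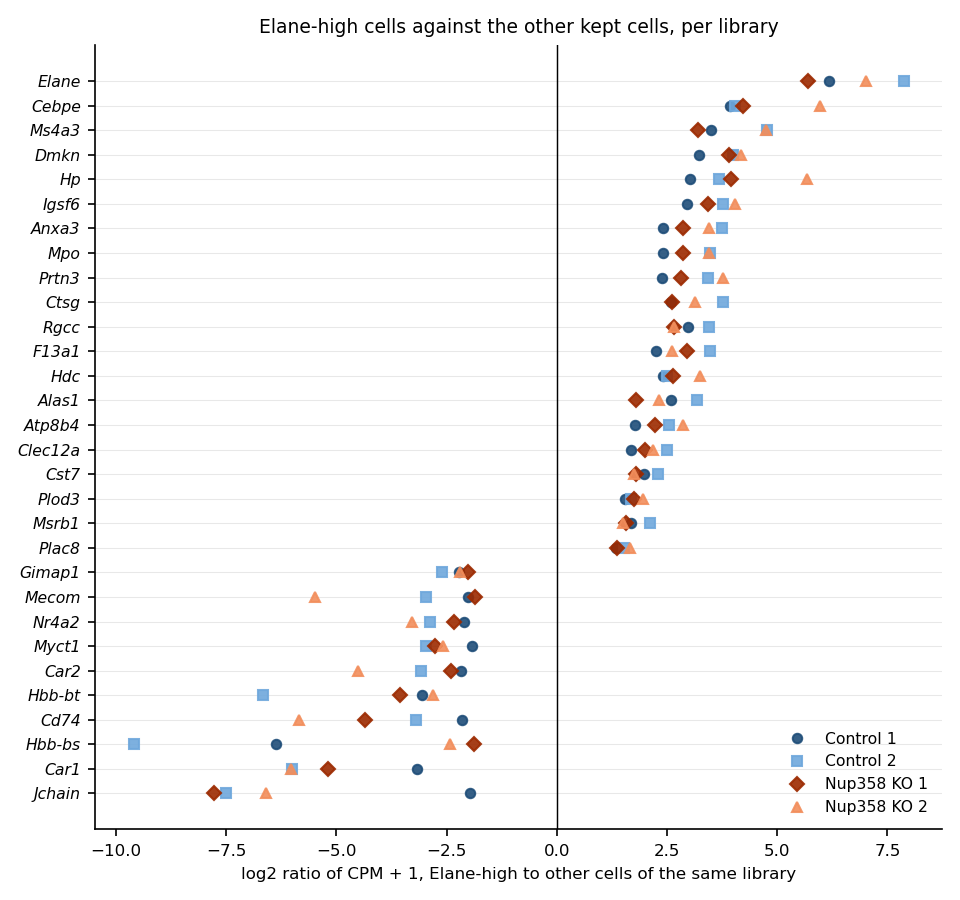
Log2 ratio of CPM + 1 between the Elane-high cells and the other kept cells of the same library, for the 20 genes with the highest lowest ratio and the 10 with the lowest highest ratio; each point is a library. All 20 upper genes lie to the right of 0 and all 10 lower genes to the left in the 4 libraries.

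The levels of other genes in a cell went with its Elane level. In control libraries 1 and 2, Prtn3 stood at 995 and 467 CPM in cells with no Elane UMI, 4774 and 4572 CPM at 5 to below 20 Elane UMIs per 10000, 7362 and 7862 CPM at 20 to below 80, and 11563 and 11850 CPM at 80 or more. Ms4a3 went from 43.1 and 17.1 CPM through 575 and 556 and then 1022 and 927 to 1785 and 1867 CPM. Cebpe went from 2.89 and 3.62 CPM through 19.0 and 3.38 and then 63.4 and 82.5 to 190 and 156 CPM. All 3 thus were higher in each higher Elane range, apart from Cebpe in the lowest range of control library 2. The stem cell antigen Cd34 went the other way, from 336 and 286 CPM in cells with no Elane UMI to 148 and 121 CPM at 80 or more, and Flt3, the receptor of lymphoid-primed progenitors, from 56.6 and 88.6 to 4.28 and 1.09 CPM. Irf8 had its highest level in the middle range, with 103, 219, 279 and 238 CPM over the 4 ranges in control library 1 and 65.5, 140, 349 and 189 CPM in control library 2. These bins share the cell's own depth and are given as a description. Since most knockout members lay in the lowest range, each comparison of genotypes below was also made within 5 to below 20 Elane UMIs per 10000, the matched range, where Elane stood at 1086 and 1029 CPM in controls and 857 and 905 CPM in knockouts.

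**Figure D3:**
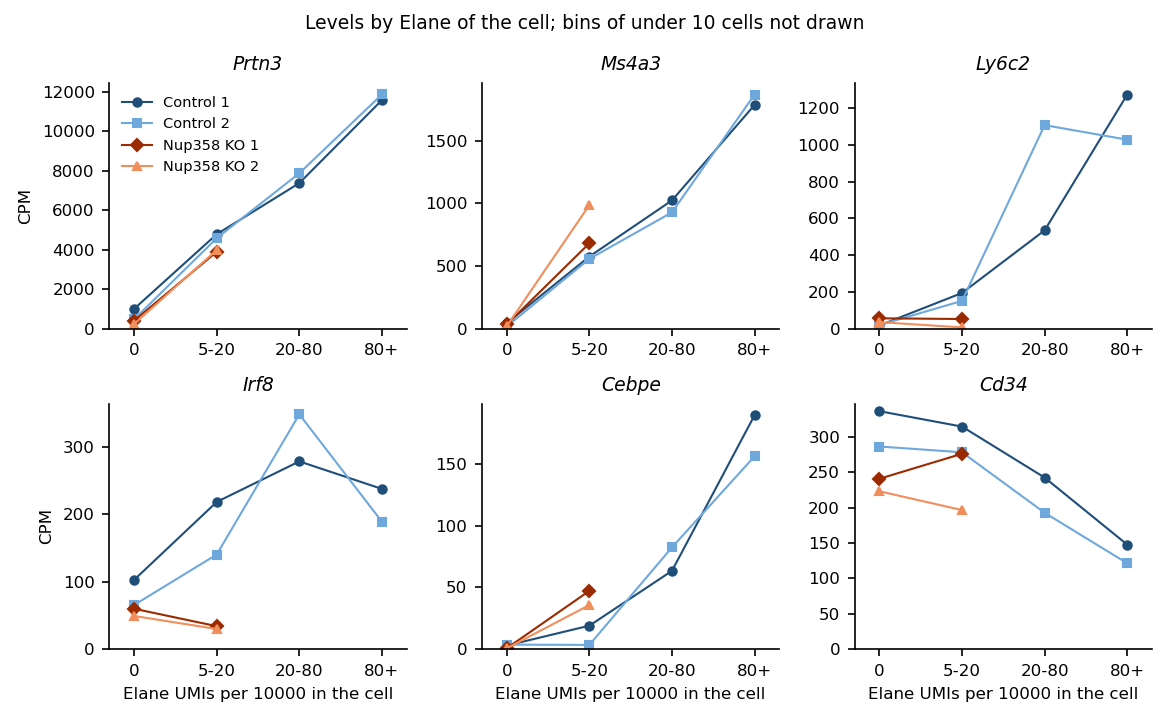
CPM of 6 genes in cells grouped by their own Elane level (0, 5 to below 20, 20 to below 80 and 80 or more UMIs per 10000), 1 line per library; knockout libraries have under 10 cells above 20 and are drawn for the first 2 groups only. In controls Prtn3 ends at 11563 and 11850 CPM while Cd34 ends at 148 and 121 CPM.

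Knockout was then compared with control inside the Elane-high cells. The targeted gene comes first: Ranbp2 stood at 118 and 96.6 CPM in control and 127 and 131 CPM in knockout members, but the assay counts 3′ ends, outside the deleted exon, so that these values do not check the deletion. The summed members held 19726713 and 3829977 UMIs in controls and 751071 and 420881 UMIs in knockouts, so that knockout values rest on far fewer molecules and on 46 cells. Of 9281 genes tested with edgeR's quasi-likelihood test on the sums, 81 (0.873%) had an adjusted p under 0.05 after Benjamini-Hochberg adjustment, 26 higher in knockouts (0.28%) and 55 lower (0.593%), and the median log2 difference over all genes was -0.02. The libraries of the 2 genotypes did not overlap for 42.5% of the genes tested, so that a lack of overlap alone is common here. The matched range gave 54 of 7539 genes (0.716%), 13 higher (0.172%) and 41 lower (0.544%). Of the 81 genes 37 were called in the matched range too, and all 70 that could be tested there had the same direction. The count rested on single libraries, where the library left alone in its genotype is assumed to vary like those of the other: it was 7 without knockout library 1, 24 without knockout library 2, 285 without control library 1 and 122 without control library 2. Without knockout library 1 the calls on Irf8, Ly6c2 and Cpa3 held, and every other of the 81 calls was lost. With the shared barcodes kept it was 18.

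Of the primary granule genes tested, 1 passed the test between the genotypes, and the fitted differences of the list were nearer to 0 in the matched range. Elane itself, which chose the cells, stood at 5332, 5167, 1096 and 1673 CPM. Prtn3, at 7506, 7798, 4072 and 4434 CPM, was lower in both knockout libraries by a log2 difference of -0.88 ± 0.24 (SE), which did not pass the test (edgeR's adjusted p = 0.11), and it was at 4774, 4572, 3887 and 3975 CPM in the matched range. Mpo had a difference of -0.77 ± 0.23 and Ctsg of -0.68 ± 0.25, neither of which passed, and in the matched range Ctsg at 1958 and 2034 CPM in knockouts overlapped the 1659 and 2034 CPM of controls. Of 10 primary granule genes tested, none rose and 1, Lyz2, fell (against 0.593% lower and 0.28% higher over all genes), and their median was -0.69 in all members but -0.11 in the matched range, against -0.02 over all genes in both. Lyz2 stood at 210 and 306 CPM in control and 90.5 and 131 CPM in knockout members, without overlap, and fell by 1.28 ± 0.27 (edgeR's adjusted p = 0.0293).

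Among the 14 genes of neutrophil priming 3 fell and none rose (against 0.593% lower and 0.28% higher over all genes), with a median of -0.33 (-0.03 in the matched range). They were Ly6c2, the lectin receptor gene Clec12a (236, 298, 116 and 114 CPM) and Alas1, the first enzyme of haem synthesis (141, 243, 66.6 and 78.4 CPM). Clec12a fell by 1.25 ± 0.24 and Alas1 by 1.46 ± 0.30, but in the matched range their differences were -0.23 and -0.26 and did not pass, and Clec12a fell by 1.23 in the other cells too. Plac8 (2631, 4063, 2921 and 2578 CPM) and Calr were the most abundant of the list and overlapped between genotypes. Hp, at 318 and 352 CPM in controls and 97.2 and 211 CPM in knockouts, had a difference of -1.19 ± 0.29 that did not pass (edgeR's adjusted p = 0.0624). A lone cell held 73.0% of the Hp UMIs of knockout library 2, and in the matched range, which leaves that cell out, Hp stood at 210, 208, 79.7 and 68.5 CPM and fell by 1.47 (edgeR's adjusted p = 0.00431; 2.47e-05 to 0.938 over its alternatives). In the other cells Hp fell by 2.94 (edgeR's adjusted p = 0.0126), more than in the Elane-high cells (difference of the effects 1.67, edgeR's adjusted p = 0.000816). Without the late-granule cells described below, Hp fell by 2.22 in the members. The difference of the effects was then 0.61 and did not pass.

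Ly6c2 and Irf8 had the smallest adjusted p-values of the genes described here. Ly6c2 stood at 598 and 793 CPM in control and 54.6 and 16.6 CPM in knockout members, and its UMIs were found in 973 of 1565, 87 of 125, 8 of 27 and 4 of 19 cells. Both knockout libraries lay far below both controls, and Ly6c2 fell by 4.21 ± 0.36 (edgeR's adjusted p = 4.22e-06). In the matched range, at 194, 151, 51.7 and 5.96 CPM, it fell by 2.33 (edgeR's adjusted p = 0.00431; 2.97e-42 to 0.0132 over 20 alternatives). Ly6c2 has a near-identical neighbour, Ly6c1, so that reads may be split between them. In the other cells of the same libraries Ly6c2 was not lower in knockouts (23.3, 17.1, 46.4 and 30.7 CPM).

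Irf8 encodes the interferon regulatory factor that directs shared precursors to monocytes and dendritic cells. It stood at 249 and 246 CPM in control and 33.3 and 23.8 CPM in knockout members, and its UMIs were found in 1075 of 1565, 94 of 125, 14 of 27 and 5 of 19 cells. The genotypes were well apart, and Irf8 fell by 3.1 ± 0.28 (edgeR's adjusted p = 5.13e-06). The matched range gave 219, 140, 34.0 and 29.8 CPM and a fall by 2.48 (edgeR's adjusted p = 0.000441; 1.40e-21 to 0.0235 over 20 alternatives). In the other cells the difference was -0.88 and did not pass (edgeR's adjusted p = 0.0915), and the test of the difference between the 2 effects gave -2.32 (edgeR's adjusted p = 6.27e-07). Irf8 and Ly6c2 were called in every alternative in which they could be tested.

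The other lineage factors did not pass the test, apart from Zeb2. Spi1, which encodes PU.1, stood at 295, 292, 237 and 219 CPM, Cebpa at 48.7, 80.9, 74.6 and 42.8 CPM and Gfi1 at 21.4, 29.8, 22.6 and 38 CPM. Cebpe had a difference of 0.07 ± 0.33, and in the matched range stood at 19.0, 3.38, 47.3 and 35.7 CPM. In the other cells Cebpe fell by 1.63 (edgeR's adjusted p = 0.0387). The difference of the effects was 1.70 (edgeR's adjusted p = 0.00326), with 67.3% of the Cebpe UMIs of knockout library 2 members in 1 cell. Myb, a factor of immature progenitors and the most abundant of the list, stood at 291, 287, 374 and 382 CPM. Zeb2, a repressor known in monocyte and dendritic precursors, fell by 1.12 ± 0.26 (229, 198, 125 and 68.9 CPM), with edgeR's adjusted p = 0.0445, and did not pass in the matched range (-0.90). Thus 2 of 13 lineage factors tested fell and none rose (against 0.593% lower and 0.28% higher over all genes), with a median of -0.11 (0.08 in the matched range).

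Among genes of monocytes and dendritic cells 11 of the 12 tested were lower in knockouts, beside 4858 of the 9281 over all genes. Of these 3 fell (0.593% over all genes), none rose, and the median was -1.35. In the matched range the median was -1.09 and 2 of 9 were called lower, against 0.544% over all genes there. Csf1r, the receptor for the macrophage growth factor M-CSF, stood at 20.8 and 26.9 CPM in controls and 5.33 and 0 CPM in knockouts and fell by 2.82 ± 0.63 (edgeR's adjusted p = 0.0333), but it did not pass in the matched range (-2.14) and fell in the other cells too (by 2.62). Ly86, a partner of a toll-like receptor homologue, stood at 19.9 and 34.5 CPM in controls and had 1 UMI in the knockout members. Irf8 was the third. The 17 genes summed to 1504 and 1525 CPM in control and 837 and 699 CPM in knockout members, with Cst3 the most abundant (742, 749, 479 and 482 CPM) and Siglech at 0 in all 4 libraries. Of 10 cytokine receptor genes tested only Csf1r was called (against 0.873% over all genes), and the G-CSF receptor gene Csf3r, the main growth factor receptor of neutrophils, stood at 48.2, 41.8, 46.6 and 40.4 CPM. Of these 10 genes 8 were lower in knockouts, beside 4858 of the 9281 over all genes. Their median was -0.60 (-0.43 in the matched range, where none was called).

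Further falls included 3 chemokine genes, a pair of signalling adaptors and a histone gene. Cxcl10, a chemokine induced by interferon, stood at 68.6 and 157 CPM in control and 9.32 and 2.38 CPM in knockout members and fell by 4.10 ± 0.55 (edgeR's adjusted p = 0.00129). Its UMIs were in 126 of 1565, 18 of 125, 6 of 27 and 1 of 19 cells, and 1 cell held 38.3% of those of control library 2. Pyhin1, also induced by interferon, stood at 39.5, 72.3, 6.66 and 0 CPM and fell by 3.74 ± 0.61. Ccl3 (74.2, 101, 18.6 and 11.9 CPM) fell by 2.48 ± 0.36 and Ccl4 (55.9, 86.4, 17.3 and 7.13 CPM) by 2.43 ± 0.41. Ccl3 and Ccl4 also fell in the other cells, by 3.72 and 2.75 (edgeR's adjusted p = 0.0126 and 0.0196). The remaining 6 of the 12 largest falls were those of Mgst2, Wfdc17, Rasa4, Tnfaip8l2, Tifab and Cd52, a surface glycoprotein of leukocytes, which fell by between 2.73 and 2.10. In the matched range Mgst2 (-1.75) and Tifab (-1.11) did not pass, and in the other cells Wfdc17, Rasa4 and Tnfaip8l2 fell too, by 3.41, 1.42 and 1.48. Cd52 stood at 170, 236, 59.9 and 33.3 CPM, and its fall was larger than that in the other cells (difference of the log2 effects -1.68, edgeR's adjusted p = 4.88e-06). Fcer1g (218, 317, 82.5 and 78.4 CPM) and Tyrobp (291, 380, 108 and 105 CPM), adaptors of activating immune receptors, fell by 1.77 ± 0.27 and 1.69 ± 0.25. Hist1h2ap, a replication-dependent histone gene with near-identical copies, stood at 1586, 867, 518 and 278 CPM and fell by 1.62 ± 0.30.

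For 3 called genes the knockout members held no UMI at all. Cxcl9 stood at 12.9 and 39.4 CPM in control members, Nrg1, which encodes the growth factor neuregulin 1, at 17.7 and 15.7 CPM, and Tctex1d1 at 8.47 and 14.1 CPM. A count of 0 over the 1171952 UMIs of both knockout libraries together allows up to 2.56 CPM, and no fold is given. Nrg1 UMIs were found in 266 of 1565 and 39 of 125 control members, and the other cells held 0.713 and 0.266 CPM in controls.

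The 12 largest rises among genes of at least 20 CPM ran from 1.01 to 2.54 on the log2 scale, against 2.10 to 4.21 for the 12 largest falls. Id1, an inhibitor of helix-loop-helix transcription factors, stood at 29.9 and 38.4 CPM in control and 95.9 and 131 CPM in knockout members and rose by 1.69 ± 0.27 (edgeR's adjusted p = 0.00311), with UMIs in 391 of 1565, 56 of 125, 21 of 27 and 18 of 19 cells. Id1 also rose in the other cells, by 0.98. Ccnd2, which encodes cyclin D2, stood at 113, 90.9, 208 and 211 CPM and rose by 1.01 ± 0.22. Ccnd1, which encodes cyclin D1 and averaged below 20 CPM, stood at 5.32, 3.13, 18.6 and 49.9 CPM and rose by 2.77 ± 0.46, from 6 cells with a UMI in each knockout library, of which 1 held 42.9% and 52.4% of its UMIs. Ccnd1 and Ccnd2 were thus higher in both knockout libraries, and they were the 2 called among 17 tested genes of cell cycle brakes and D cyclins (against 0.873% over all genes). Ccnd3, the remaining D cyclin of the list, was not called. The list as a whole had 11 lower and 6 higher genes and a median of -0.24. The matched range gave 1 call in each direction, Ccnd1 higher and Ypel3 lower (against 0.172% higher and 0.544% lower over all genes there). Angpt1, a ligand of the stem cell receptor TIE2 (35.2, 21.7, 75.9 and 73.7 CPM), and Msi2, an RNA-binding protein of stem cells (53.8, 35.8, 103 and 102 CPM), rose by 1.35 ± 0.28 and 1.16 ± 0.25. In the matched range the differences of Angpt1 and Msi2 were 0.55 and 0.50 and did not pass. Emilin2, Ak6 and the less described B930036N10Rik, 4930519L02Rik, D1Ertd622e and 1810032O08Rik also rose, of which B930036N10Rik (28.4, 43.6, 116 and 157 CPM) rose by 1.89 ± 0.28. In the matched range Emilin2 (1.12), 4930519L02Rik (1.44) and Ccnd2 (0.93) did not pass either. In the other cells 4930519L02Rik, Ak6 and Ccnd1 rose too, by 1.59, 0.97 and 1.80.

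Cpa3, the mast cell carboxypeptidase gene, had the largest rise of these (5.73, 5.22, 18.6 and 52.3 CPM, by 2.54 ± 0.45) but rested on 3 and 5 knockout cells, of which 1 each held 50% and 45.5% of the UMIs, and it rose in the other cells too (by 1.44). Of 3 basophil and mast cell genes tested it was the only one called higher in all members (against 0.28% over all genes), with a median of 1.00, and in the matched range Hdc, which makes histamine, was called higher too (against 0.172%). The 10 genes of that list summed to 92.5, 81.2, 205 and 307 CPM in the members and 119, 93.5, 190 and 270 CPM in the other cells, with Hdc the most abundant and Prss34, Cma1 and Gzmb at 0. Mcpt8, which the rule limits, stood at 20.4, 23.5, 62.6 and 107 CPM in the members. Its part, and that of the basophil genes, in the other differences was not tested.

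**Figure D4:**
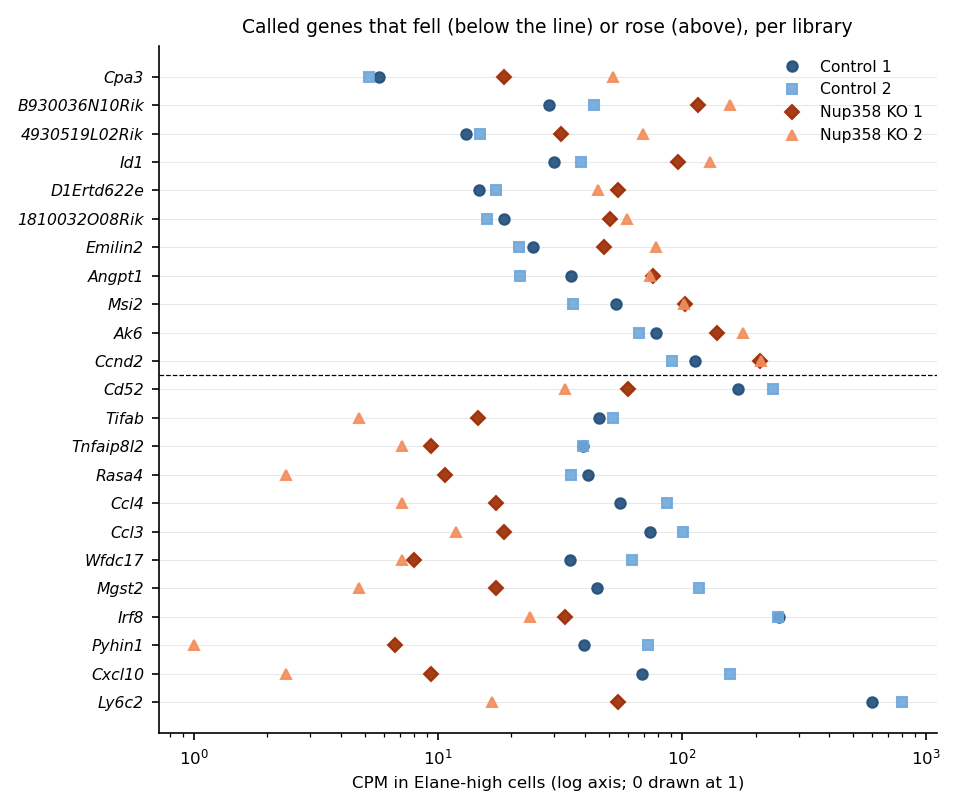
CPM on a log axis in the Elane-high cells of each library for 11 of the 12 largest rises (above the dashed line) and the 12 largest falls (below it) among genes with an adjusted p under 0.05 and a mean of 20 CPM or more; a value of 0 is drawn at 1. The genes were also chosen for a lack of overlap, so that both knockout points lie on the same side of both control points by choice. Ly6c2 stood at 598 and 793 CPM in controls against 54.6 and 16.6 CPM in knockouts.

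Immediate early genes, which cells switch on within minutes of a stimulus, were lower in the knockout members in 15 of 16 cases tested, beside 4858 of 9281 over all genes. Of these 4 fell (against 0.593% over all genes) and none rose, with a median of -1.01. In the matched range the median was -1.47 and 5 fell (against 0.544%). Fos stood at 605 and 512 CPM in control and 226 and 318 CPM in knockout members, Jun at 486, 312, 111 and 138 CPM, Jund at 490, 312, 144 and 183 CPM and Egr1 at 102, 56.4, 20.0 and 19.0 CPM. They fell by 1.07 ± 0.24, 1.72 ± 0.25, 1.33 ± 0.25 and 2.04 ± 0.35. The same 4 genes fell in the other cells too, by 1.80, 1.81, 1.42 and 2.49, and the fall of Fos was the smaller in the Elane-high cells (difference of the effects 0.68, edgeR's adjusted p = 0.011).

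No gene of the phase lists of the cell cycle was called. None of 23 genes of the G1/S phase (median -0.19) and none of 20 of the G2/M phase (median -0.21) passed, with Top2a at 454, 355, 317 and 228 CPM and Mcm7 at 257, 206, 192 and 226 CPM. For 5 of the G2/M genes, Aurkb, Birc5, Cdk1, Top2a and Ube2c, the knockout effect was lower in the Elane-high cells than in the other cells (against 0.433% over all genes). The same difference at matched Elane is not given here. Cdk1, the kinase of mitotic entry, stood at 116, 128, 82.5 and 54.6 CPM in the members and 92.0, 77.4, 111 and 121 CPM in the other cells, with the genotypes in opposite order (difference of the effects -1.29, edgeR's adjusted p = 0.000838). Tk1, thymidine kinase, fell in the members by 1.32 ± 0.31 (80.2, 66.3, 37.3 and 19.0 CPM) but did not pass in the matched range (-1.14).

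Of 11 p53 targets tested 2 rose and none fell (against 0.28% higher and 0.593% lower over all genes), with a median of 0.29 beside -0.02 over all genes. Pmaip1, which encodes the death-promoting protein NOXA, stood at 3.70, 4.96, 16.0 and 21.4 CPM and rose by 2.12 ± 0.47, and Phlda3, an inhibitor of AKT signalling, stood at 1.93, 2.09, 12 and 11.9 CPM and rose by 2.59 ± 0.54. In the matched range Pmaip1 did not pass (1.93), and both rose in the other cells too, by 1.31 and 1.43. Both rested on few cells, since Phlda3 was found in 3 and 2 knockout members. Bax, the most abundant of the list and of the 11 survival and death genes tested, stood at 214, 170, 194 and 271 CPM, and Pmaip1 was the only call in the second list too. None of 18 genes for folding in the endoplasmic reticulum (median -0.28), 10 of heat shock and stress (-0.15), 16 of interferon response (-0.42) or 18 of Nup358 and its partners (0.18) was called, and in the matched range these medians were 0.06, 0.21, -0.14 and 0.04, so that those of the folding and stress genes turned. Hdac3 stood at 37.0, 39.4, 49.3 and 33.3 CPM. For 7 of the folding genes the knockout effect was lower in the Elane-high cells than in the rest (against 0.433% over all genes), again not given at matched Elane, such as Sdf2l1 (274, 316, 169 and 166 CPM against 74.1, 64.8, 83.4 and 83.0 CPM). Of 14 genes of ribosome making none was called, 13 were higher in knockouts (4423 of 9281 over all genes) and the median was 0.34, with Npm1 at 3969, 3548, 5125 and 6080 CPM. No call was made among 8 stem cell genes (median 0.06), 11 surface antigens of the sort and its subsets (0.00), 5 lymphoid (0.19), 4 erythroid (-0.32) and 2 megakaryocyte genes tested. The medians of the stem, surface and lymphoid genes were -0.47, -0.30 and -0.29 in the matched range.

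The knockout effect inside the Elane-high cells was also set against that in the other cells of the same libraries. Of 12922 genes, the effects differed for 85 (0.658%), with 29 (0.224%) more positive and 56 (0.433%) more negative in the Elane-high cells. The differences were also fitted at matched Elane, with results that are not given here. The other cells themselves had 331 of 13568 genes called (2.44%), 116 higher (0.855%) and 215 lower (1.58%) in knockouts, on far more UMIs. Among the lists with several such genes, the effect was more negative in the Elane-high cells for 7 folding genes, 5 G2/M genes, 4 monocyte and dendritic genes and 3 lymphoid genes, and more positive for 8 late granule and 3 immediate early genes. The 6 smallest adjusted p-values were those of Ly6c2, with a difference of the effects of -5.19, and of 5 late granule genes. Without a library in turn the count ran from 50 (control library 2) to 279 (knockout library 1).

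Genes of the late granules hung on a few cells. S100a8, the abundant calcium-binding protein of mature neutrophils, stood at 132 and 805 CPM in control and 533 and 2086 CPM in knockout members, and S100a9, its partner, at 59.5, 668, 410 and 4013 CPM. The libraries overlapped, and the S100a8 difference of 1.41 ± 0.58 did not pass (edgeR's adjusted p = 0.339). In each knockout library 2 members had an S100a8 UMI, and 1 of them held 398 of the UMIs in knockout library 1 and 875 in knockout library 2. Members in which 7 late granule genes took at least 50 UMIs per 10000 numbered 10, 2, 1 and 1. Without them S100a8 stood at 49.1 and 83.1 CPM in control and 2.82 and 7.48 CPM in knockout members, below both controls. These cells were left out for their late granule RNA after the values had been seen, so that no test is read from what remains. None of 12 late granule genes tested was called in all members, with a median of 0.76 in all members and -0.47 over the 5 tested in the matched range, and Ltf, Ly6g and Mmp9 were at 0 in the knockout members. The list summed to 494, 2359, 1176 and 7598 CPM in all members and to 283, 373, 135 and 115 CPM without the late-granule cells. Without them 99 genes were called over all genes, 26 higher and 73 lower.

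**Figure D5:**
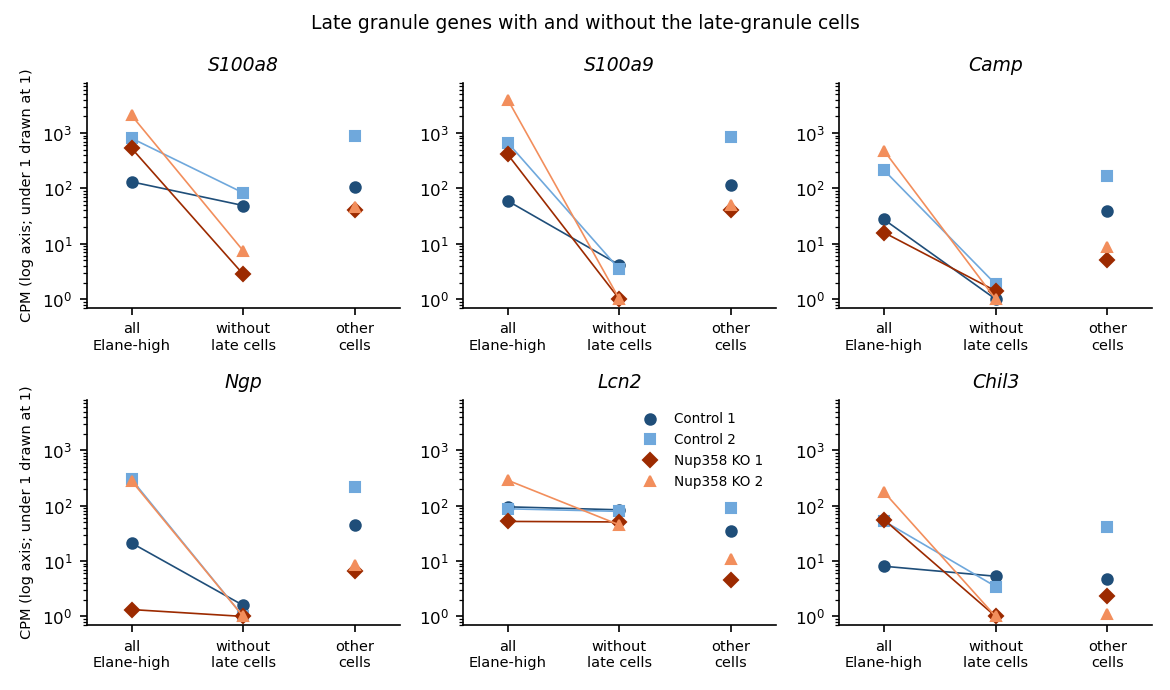
CPM on a log axis of late granule genes in all Elane-high cells, in those without the late-granule cells (10, 2, 1 and 1 cells left out) and in the other kept cells, 1 point per library; values under 1 are drawn at 1. S100a8 in the knockout libraries goes from 533 and 2086 CPM to 2.82 and 7.48 CPM when 1 cell of each is left out.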

How the data were processed

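RNA of sorted LSK cells was measured in 4 libraries of the 10x Genomics 3′ assay. The values are deposited as raw UMI counts of every gene in every cell barcode, in whole numbers; the authors made them with Cell Ranger 3.1 on build mm10, per the submitters' processing notes. Cells with at least 1000 UMIs, at most 10% mitochondrial UMIs and no copy of the barcode with 3-fold or more UMIs in another library were kept; no doublet caller was run. UMI counts were summed over the Elane-high and the other cells of each library and tested with edgeR 4.0.16 in R 4.3.3 (TMM, filterByExpr, quasi-likelihood test, Benjamini-Hochberg adjustment over all genes, threshold 0.05), without a replicate block. The 3 genes of the rule were left out of the counts of calls. DESeq2 1.42.0 and limma 3.58.1 with Python 3.11.15 were the other tools. A library pools 3 mice, so that p-values cover the spread between 2 pools a genotype.

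The members, the gene lists and the tests were chosen with earlier results of these data known. Genes were named by rule: the 12 largest rises and falls of at least 20 CPM without overlap, the 20 highest and 10 lowest against the other cells, the 6 smallest p of the difference of effects, and of each list the calls and the most abundant members; 1 of the rises and 1 lymphoid gene are not reported here. Fcer1g, Tyrobp, Hist1h2ap, Tk1, Nrg1, Cxcl9, Tctex1d1 and a few others were named after their values were seen. Hp was named as a class marker, but the matched range, in which it was called, was not a planned setting. On simulated counts for 9049 genes in the Elane-high comparison, 28.7% of 2-fold and 79.8% of 4-fold changes were recovered, and 8.62% of calls were false.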

Additional observations from a re-analysis of the deposited data

Results flagged for a closer look

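The effect of the knockout differed between the Elane-high cells and the other cells of the same libraries for 85 genes by the genotype-by-class term of the edgeR fit (quasi-likelihood, Benjamini-Hochberg adjusted over 12922 genes). Ly6c2 had the smallest adjusted p among them, with a difference of -5.19 on the log2 scale (edgeR's adjusted p = 1.95e-18): it fell in the Elane-high cells and was at 23.3, 17.1, 46.4 and 30.7 CPM in the other cells. Without the late-granule cells the difference for Ly6c2 was -5.46. At matched Elane the difference is not given here, and the fall of Ly6c2 in the members was 2.33.

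For 5 late granule genes the effect was more positive in the Elane-high cells: S100a8 (4.46), S100a9 (5.50), Chil3 (5.38), Lcn2 (3.51) and Camp (4.69), with edgeR's adjusted p from 8.70e-17 for S100a8 to 2.48e-10 for Camp. In knockout library 2, 1 cell held 875 of 878 S100a8 UMIs, all 1689 of S100a9, all 74 of Chil3, all 203 of Camp and 103 of 121 of Lcn2. In knockout library 1, 1 cell held 398 of 400 S100a8 UMIs, all 308 of S100a9 and all 42 of Chil3. With the late-granule cells of every library left out, S100a9 and Chil3 were at 0 in both knockout libraries, and the difference was -1.13 for S100a8, 3.26 for Camp and 2.16 for Lcn2; since those cells were chosen for late granule RNA, no test is read from these values.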

How the results depend on the processing

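The share of Elane-high cells was lower in knockouts under every setting tried. The difference of -14.1 points became -33.3 points with Prtn3 plus Ms4a3 in place of Elane, a far broader class in which the ratio fell from 13.3-fold to 2.33-fold and control library 2 (41.9%) and knockout library 1 (34.7%) lay close together, and -18.9 to -9.33 points with each library left out in turn. The 81 calls inside the Elane-high cells became 219 with no filter on low counts, 672 with Prtn3 plus Ms4a3, 138 with cells thinned to 1000 UMIs before the rule, 32 at 5 to below 80 Elane UMIs per 10000, 20 and 23 with an Elane minimum of 10 and 20, 18 with the shared barcodes kept, 28 without cells over 3 times the median UMIs, and 7 to 285 without each library in turn. Without every barcode seen in another library 3 of 1176 genes were called (Fos, H3f3b and Malat1, all lower), and Irf8 and Ly6c2 could not be tested. DESeq2 called 59, of which 49 were shared. The difference between the effects was called for 85 genes, for 32 with DESeq2, 132 with DESeq2's size factors, 136 with no filter and 50 to 279 without each library. In the other cells 331 genes became 902 with DESeq2, 2157 with no filter and 18 to 3135 without each library. The cause of these changes was not tested, except that fewer cells or samples enter where they are left out. A fit for members of 80 or more Elane UMIs per 10000 was not run, since knockout library 1 has none.

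With the replicate block the calls were 159 in the Elane-high and 1252 in the other cells; same-numbered libraries did not deviate together (r = -0.01 and -0.07), so that the numbers name the libraries only.

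Of 573 values for 29 named genes 412 kept direction and side of the threshold, 127 lost and 19 gained the call, and 15 reversed, all of them in the 5 late granule genes among these 29. Genes that were not called in all members changed sign too, among them Hp (-3.38 to 0.27), F13a1 (-1.73 to 0.53), Cebpe (-2.34 to 1.63), Ms4a3 (-1.64 to 0.55), Rgcc (-1.20 to 1.47), Anxa3 (-1.36 to 0.59) and Ctsg (-1.24 to 0.11). With Prtn3 plus Ms4a3 the log2 difference was -2.68 for S100a8, -2.34 for Chil3, -1.99 for S100a9, -2.58 for Lcn2 and -3.45 for Camp. At 5 to below 80 it was -0.86, -0.033, -1.14, -0.80 and -3.99 in that order. Without the late-granule cells it was -3.88 for S100a8 and -0.78 for Lcn2, and in the matched range -0.47 for Lcn2. Without each library it ran from -0.88 to 1.64 for Lcn2 and from -3.00 to 3.1 for Camp, both negative without knockout library 2. Depth limits the knockout side most: 2.56 CPM is the level that a count of 0 allows there.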

Other observations

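Genes of eosinophil granules appeared in 1 Elane-high cell of knockout library 2; they were looked at after they had been called in the fit without knockout library 1. Prg2, which encodes the eosinophil major basic protein, had 166 UMIs in knockout library 2, all in 1 cell, and 12, 2 and 0 UMIs in the members of control library 1, control library 2 and knockout library 1. Epx, eosinophil peroxidase, had 53 UMIs there, all in 1 cell, against 2, 0 and 0. Prg3 had 26 UMIs in 1 cell against 34, 11 and 1 UMIs in the members of the other libraries. These are counts from a lone cell and no comparison of genotypes rests on them.

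A few genes that did not pass the test in all members did so where Elane was matched. Rgcc, a regulator of the cell cycle that was among the genes highest with Elane, stood at 129, 176, 145 and 157 CPM in all members but at 50.6, 48.2, 145 and 125 CPM in the matched range, where it was higher by 1.47 on the log2 scale (edgeR's adjusted p = 0.00431; 0.00431 to 1 over its alternatives). Ypel3, a growth suppressor that is a p53 target, stood at 52.4, 49.9, 21.3 and 0 CPM in all members (edgeR's adjusted p = 0.0566) and at 71.0, 66.8, 19.2 and 0 CPM in the matched range and was lower by a log2 difference of -2.46 (edgeR's adjusted p = 0.0142; 3.46e-05 to 0.999 over its alternatives). Ms4a3 stood at 575, 556, 681 and 986 CPM in the matched range, where it did not pass the test, while Ly6c2 in the same cells was at 194, 151, 51.7 and 5.96 CPM.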
